A study of Mus musculus with 12 samples.

Results

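Of the 263785 accessible regions found across 12 libraries of mouse cortical neurons, 3011 carried a peak in 3 of 3 libraries treated with α-synuclein pre-formed fibrils and Rab5 antisense oligonucleotides (PFF + Rab5 ASO) and in 0 of the 9 other libraries. A region is the span of peaks from any library that overlap by at least 1 bp. The 3011 regions were therefore selected on the measured peak calls themselves, and they make up 1.14% of all regions. Of them, 3008 lie on chromosomes 1 to 19 and X and 3 on unplaced scaffolds, and the sequence and position values below use the 3008.

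The cells were primary cortical neurons of wild-type C57BL/6 embryos at embryonic day 18, and open chromatin was measured in them by ATAC-seq, with 3 biological replicates in each of 4 groups and all libraries labelled batch 1. The groups were PBS for 7 days, PFF for 7 days, PFF for 7 days with MLi-2 (which blocks the kinase activity of LRRK2) during the last 5 days, and PFF for 7 days with ASO against Rab5a and Rab5b during the last 3 days. Every group except PBS thus carried PFF, and no library received a control oligonucleotide, so exposure to an ASO and loss of Rab5 cannot be told apart. The free-text descriptions of the MLi-2 and ASO libraries name PBS where their titles and treatment labels name PFF, and the titles and treatment labels were followed.

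In ATAC-seq the transposase Tn5 inserts adapters where DNA is not wrapped by nucleosomes, so that fragments pile up at promoters, enhancers and other open elements. Rab5 is the GTPase that marks early endosomes and directs their fusion and maturation, and an ASO of this kind lowers a protein by directing RNase H to its messenger RNA. RFX proteins, which recur below, are winged-helix transcription factors that bind a palindromic element called the X-box and are known for switching on genes of cilia.

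The sequences of 10 of the regions show what the set looks like. All are in GRCm38, on the plus strand. Capitals mark each stretch that matches at least 10 of the 14 positions of the palindrome formed by GTTGCCA and its reverse complement, a simple form of the X-box. The 3 highest regions of at most 300 bases lay outside promoters and had a GC content of 42.7%, 37.0% and 35.6%:
Upstream of Stat4, chr1:51964805-51965022: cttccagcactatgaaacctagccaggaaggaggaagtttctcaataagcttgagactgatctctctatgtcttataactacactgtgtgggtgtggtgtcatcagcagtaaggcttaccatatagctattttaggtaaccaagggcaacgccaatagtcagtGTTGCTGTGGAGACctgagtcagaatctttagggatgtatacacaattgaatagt
P3h2 intron, chr16:26024641-26024794: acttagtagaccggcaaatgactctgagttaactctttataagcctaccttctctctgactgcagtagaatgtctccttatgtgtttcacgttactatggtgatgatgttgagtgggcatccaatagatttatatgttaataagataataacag
Fhit intron, chr14:10457259-10457505: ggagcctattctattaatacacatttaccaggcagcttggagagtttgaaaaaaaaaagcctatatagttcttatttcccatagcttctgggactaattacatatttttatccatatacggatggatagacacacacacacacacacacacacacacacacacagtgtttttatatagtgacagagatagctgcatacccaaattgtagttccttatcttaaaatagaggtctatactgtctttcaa
Next come the 3 highest regions within 1 kb of starts of protein-coding genes, each start lying inside its gene. With the region at a start inside Lrrk2, they are shown because promoters were rare in the set:
Adss, chr1:177768917-177769194: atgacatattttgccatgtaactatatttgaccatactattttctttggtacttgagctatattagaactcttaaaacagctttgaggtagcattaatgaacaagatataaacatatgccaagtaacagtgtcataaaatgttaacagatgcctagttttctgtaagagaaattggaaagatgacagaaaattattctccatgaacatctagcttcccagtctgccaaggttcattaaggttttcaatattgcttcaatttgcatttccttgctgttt
Tusc3, chr8:39045985-39046125: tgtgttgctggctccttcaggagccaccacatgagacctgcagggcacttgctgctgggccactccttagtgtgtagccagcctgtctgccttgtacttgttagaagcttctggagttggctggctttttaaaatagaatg
Brwd1, chr16:96019989-96020176: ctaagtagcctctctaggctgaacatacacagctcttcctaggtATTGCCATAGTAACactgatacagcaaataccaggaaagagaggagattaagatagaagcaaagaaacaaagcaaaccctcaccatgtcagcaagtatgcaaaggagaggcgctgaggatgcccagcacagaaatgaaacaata
Lrrk2, chr15:91738969-91739081: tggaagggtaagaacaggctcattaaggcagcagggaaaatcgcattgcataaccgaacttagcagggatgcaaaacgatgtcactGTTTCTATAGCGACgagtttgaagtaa
The 3 highest regions of at most 300 bases that hold the RFX core GTTGCCAT were chosen after the motif shares below had been seen, and their best palindrome matches cover 12, 11 and 11 of 14 positions:
Zc3h12c distal, chr9:52227370-52227508: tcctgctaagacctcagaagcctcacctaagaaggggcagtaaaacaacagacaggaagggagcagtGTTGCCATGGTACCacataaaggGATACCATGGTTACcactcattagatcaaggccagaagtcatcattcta
Arhgef3 intron, chr14:27199690-27199864: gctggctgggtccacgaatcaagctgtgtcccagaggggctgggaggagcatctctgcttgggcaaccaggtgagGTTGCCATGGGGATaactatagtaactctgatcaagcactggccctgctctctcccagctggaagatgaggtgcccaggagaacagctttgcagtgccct
Bub1b intron, chr2:118637517-118637662: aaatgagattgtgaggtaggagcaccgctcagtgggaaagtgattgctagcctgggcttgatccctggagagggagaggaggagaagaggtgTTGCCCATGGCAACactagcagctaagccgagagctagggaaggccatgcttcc

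The same rule gave far fewer regions for the other groups. Regions listed in 3 of 3 libraries of a group and in 0 of the other 9 numbered 67 for PBS (0.0254% of all regions), 533 for PFF (0.202%) and 51 for PFF + MLi-2 (0.0193%). In the opposite direction, 482 regions (0.183%) had a peak in all 9 other libraries and in 0 of 3 PFF + Rab5 ASO libraries. A peak list holds no value below its threshold, so absence from a list does not mean closed chromatin. Just outside the rule lay 2229 regions with a peak in 3 of 3 ASO libraries and 1 of the 9 others, and 5567 with a peak in 2 of 3 ASO libraries and in 0 others.

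The 3011 regions were about as high as a typical region and lower than the shared ones. The fragment pileup at the summit, recovered from the deposited fold and p-value, had a median of 15 fragments in ASO replicate 1, 13 in replicate 2 and 14 in replicate 3, and it ran from 8 to 38 over the 3 libraries. Averaged over the libraries that list a region, the median was 13.7 fragments, beside 13.9 over all regions, 12.3 for regions in exactly 3 libraries and 24.6 for regions in all 12. Ranked by fold within their own list, with 100 as the highest peak, the regions had a median percentile of 39.9 and a maximum of 84.8, beside medians of 35.3 over all regions, 28.1 in exactly 3 libraries and 73.8 in all 12. The 482 regions absent only with the ASO had a median percentile of 43.9, and the 533 listed only with PFF 30.2. Of the 3011, 837 (27.8%) lay above the 50th percentile on average, and 331 did so in all 3 ASO lists. The percentiles of the regions correlated between the ASO libraries at Spearman's rho of 0.37 to 0.42 across 3011 regions that share the same selection.

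The regions were AT-rich. Their median GC content was 41.5%, with quartiles at 37.1% and 47.0%, and the peaks of each ASO library within them had medians of 42.3%, 41.7% and 41.8%. All regions had a median of 50%, regions in all 12 libraries 51.4%, regions listed only with PFF 51.8% and the regions absent only with the ASO 49.0%. The regions just outside the rule lay in between, at 43.7% for those with 1 other library and 44.3% for those in 2 of 3 ASO libraries. Of the 3008 regions 15.1% had under 35% GC, against 3.45% of all regions, and 5.68% had 55% or more, against 27.2%. Their median ratio of observed to expected CpG was 0.153, against 0.22 over all regions, and 38.1% held no CpG. Repeat-masked bases took 13.3% of their sequence on average, against 9.98% over all regions and 7.56% in the PFF-only regions.

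**Figure D1:**
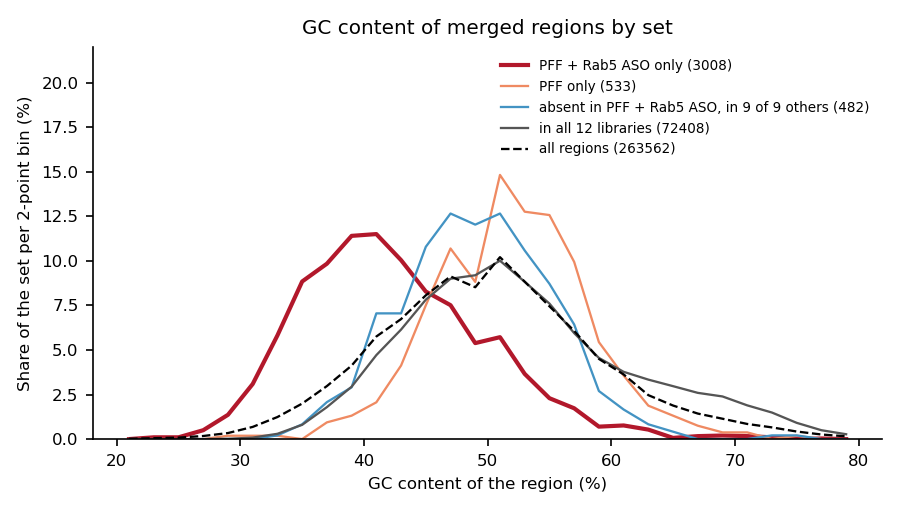
The GC content of each region in percent (x axis) is plotted against the share of its set in each 2-point bin (y axis) for 5 sets of merged regions, with the number of regions in brackets. The curve of the regions listed only with PFF + Rab5 ASO, with its median of 41.5%, lies to the left of the other 4, whose medians run from 49.0% to 51.8%.

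The share of regions listed only with the ASO was lower in each higher band of GC content. It was 5.00% of the 9100 regions under 35% GC (95% Wilson interval 4.57 to 5.47%), 3.60% from 35 to 40%, 1.82% from 40 to 45%, 0.872% from 45 to 50%, 0.525% from 50 to 55%, 0.287% from 55 to 60% and 0.186% above (0.146 to 0.237%). The PFF-only regions took the opposite course at the lower end, with 0.033% under 35% GC and 0.31% from 50 to 55%. Among promoter regions the share ran from 3.77% under 35% GC (2.12 to 6.62%) to 0.0691% at 60% or more. Outside promoters it ran from 5.04% to 0.331% at 55 to 60%, and it was 0.354% above. Wilson intervals cover counting error only, and neighbouring regions are not independent.

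**Figure D2:**
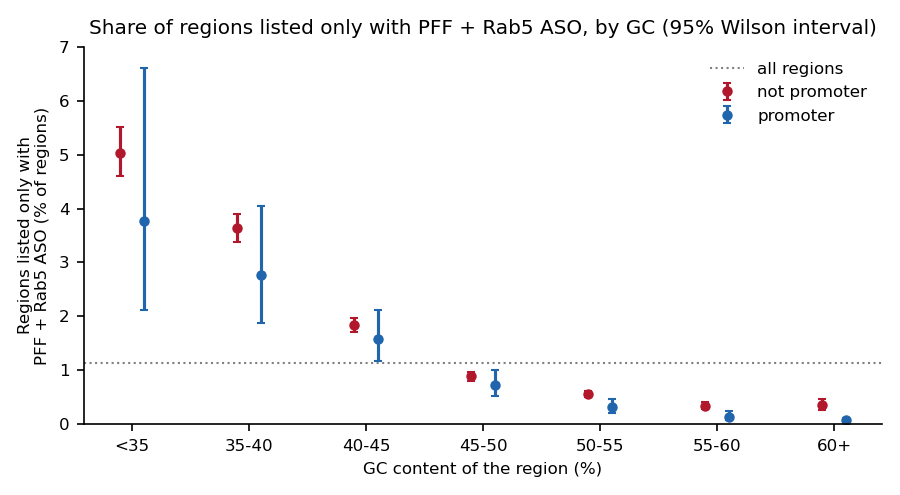
For bands of GC content (x axis), the share of regions listed only with PFF + Rab5 ASO in percent (y axis) is plotted with its 95% Wilson interval for promoter regions (within 1 kb of a transcription start) and all others. Both series are highest on the left, at 5.04% and 3.77%, and lie below the share over all regions of 1.14% (dotted line) in the 4 bands from 45% GC up.

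The regions lay away from promoters. Only 163 of 3008 (5.42%, 95% Wilson interval 4.67 to 6.29%) were within 1 kb of an annotated transcription start, against 17.1% of all regions, 29.1% of regions in all 12 libraries and 11.4% of PFF-only regions. Intergenic positions held 1457 (48.4%, 46.7 to 50.2%), against 36.2% of all regions. Introns held 1310 (43.6%), close to the 43.1% of all regions, and exons 78 (2.59%). The median distance to a start was 21380.5 bp, against 11099.5 bp over all regions, and 25.7% of the regions lay over 50 kb from any start, against 15%. Within the band of 35 to 45% GC, which held 51.9% of the regions, the differences were smaller: 4.29% were promoters, against 5.53% of all regions in that band, 48.9% were intergenic, against 45.6%, and repeats took 11.4%, against 10.8%. Promoter members had a median GC of 45.3%, and intronic and intergenic members 41.4% and 41.2%.

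Many of the regions bordered on other accessible sites. Of the 3008, 1367 (45.4%) lay within 1 kb of a region outside the set, 751 (25%) within 100 bp and 208 (6.91%) within 10 bp. With peaks joined when within 100 bp of each other, 2786 regions met the rule and the share within 1 kb was 27.3%. Shares within 1 kb were similar for the PFF-only regions (45.6%) and for regions in all 12 libraries (41.5%), each measured to regions outside its own set. Among themselves the regions were scattered, with 152 having another member within 5 kb and 552 within 50 kb. They occurred on every chromosome except Y, from 0.781% of the regions of chromosome 17 to 1.54% of those of chromosome 3, whose regions had the lowest median GC of any chromosome (47.8%).

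In their short sequence motifs the regions differed from all regions, the shared regions, the PFF-only regions and those absent only with the ASO. The RFX core GTTGCCAT, searched on both strands within 100 bp of the highest summit, was found in 190 of 3008 regions (6.32%), against 2.15% of all regions, 2.73% of regions in all 12 libraries, 0.563% of PFF-only regions and 0.207% of the regions absent only with the ASO. The longer palindrome at 11 or more of its 14 positions was found in 525 regions (17.5%, 95% Wilson interval 16.1 to 18.9%), against 5.34% of all regions, 6.81% of regions in all 12 libraries, 2.25% of PFF-only regions and 1.04% of those absent only with the ASO. At 12 or more positions the shares were 8.38% and 1.96% of all regions. The palindrome matches the core, so the 2 searches overlap. In 82.9% of the 525 regions the palindrome was centred within 50 bp of the summit, near the 77% over all regions and the 79.8% for regions in exactly 3 libraries. The regions just outside the rule shared this trait. The palindrome was in 17.1% of those with 1 other library and 12.5% of those in 2 of 3 ASO libraries. For the RFX core these shares were 6.64% and 4.52%.

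AT-rich motifs were frequent too, and AP-1 and E-box motifs were sparse. TAATTA, the core of many homeobox sites, was found in 18.8% of the regions, against 7.67% of all regions, and the MEF2 motif CTATTTNTA in 4.82%, against 2.13%. TGANTCA, the site of AP-1 factors such as FOS and JUN, was found in 6.25%, against 10.8% of all regions, 21% of PFF-only regions and 28% of the regions absent only with the ASO. CAGATG, an E-box bound by NEUROD factors, was found in 17.2%, against 22.2%, and CAGCTG, an E-box bound by ASCL factors, in 8.48%, against 16.9%. The GC box GGGCGG was found in 2.33%, against 9.53%. The regions just outside the rule leaned the same way. With 1 other library and in 2 of 3 ASO libraries, TAATTA was found in 16.1% and 15.5%. In the same order TGANTCA was found in 8.30% and 6.80%, and CAGCTG in 10.5% and 9.54%. When only summit windows with 35 to 45% GC were compared, a band chosen after the GC values were known, TAATTA stood at 18.7% against 13.5% and CTATTTNTA at 4.73% against 3.81%. In the same windows the RFX core stood at 6.34% against 2.57%, the palindrome at 18.0% against 6.54%, TGANTCA at 6.90% against 13% and GGGCGG at 1.06% against 1.18%. There CAGATG stood at 18.3% against 24.6% and CAGCTG at 8.64% against 11.4%, a smaller gap for CAGCTG than without the band. Within 50 bp of the summit the shares of the regions were 8.98% for TAATTA, 3.36% for TGANTCA, 4.26% for CAGCTG and 2.06% for CTATTTNTA, beside 3.51%, 6.61%, 10.3% and 0.988% of all regions, and 4.99% for the RFX core, beside 1.56%. A match is a run of letters and does not show that a factor is bound.

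**Figure D3:**
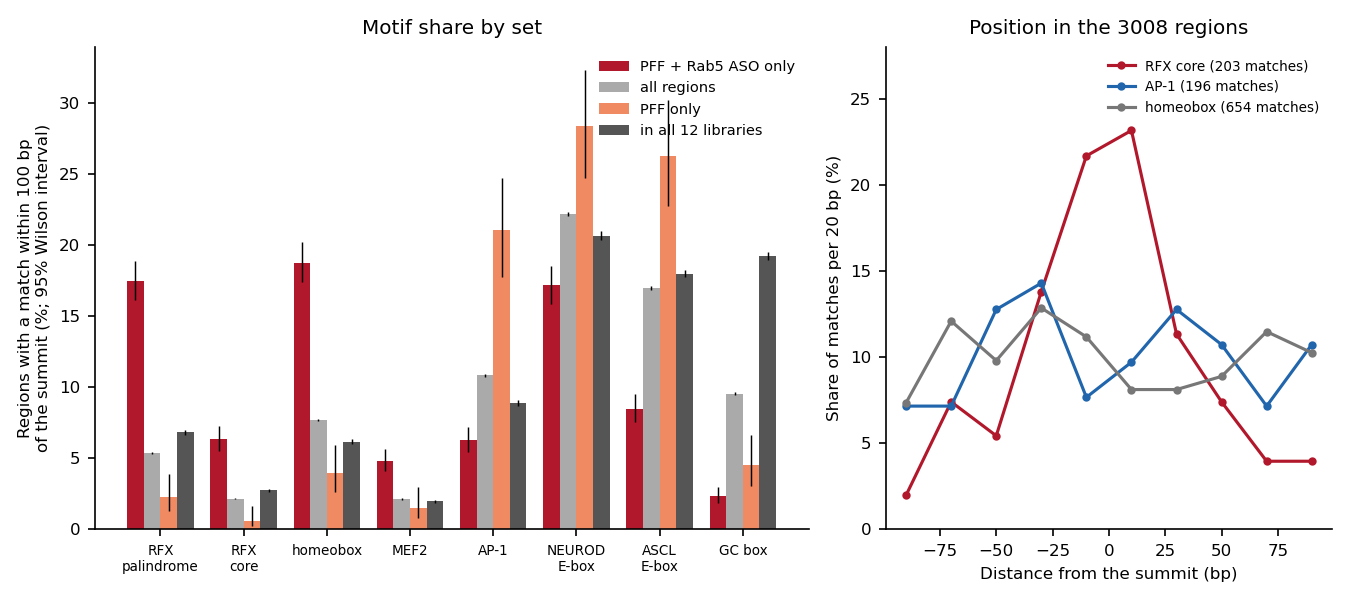
The left panel gives the share of regions with each motif within 100 bp of the summit (y axis, percent, with 95% Wilson intervals) for 4 sets, and the right panel the share of motif matches per 20 bp of distance from the summit (x axis, bp) in the 3008 regions. The RFX palindrome stands at 17.5% in the regions listed only with PFF + Rab5 ASO against 5.34% of all regions, and 21.7% and 23.2% of RFX core matches fall in the 20 bp on either side of the summit, near the 19.0% and 19.4% over all regions.

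The motif values were then read in regions outside the selected set. Regions with a peak in a single library are disjoint from the 3011, but they were defined by the same peak calls. Those of an ASO library have no peak in the 9 other libraries and so come near to the rule. The motifs were also picked with the shares of the 3011 regions known, so the values below are not an independent test. The palindrome was found in 7.55%, 5.56% and 5.95% of the single-library regions of ASO replicates 1, 2 and 3. In the 9 other libraries the lowest share was 1.68% and the highest 1.89%, so the groups did not overlap. The mean was 6.36 ± 1.05% (SD, n = 3) against 1.79 ± 0.076% (n = 9), an exact permutation test over the 220 choices of 3 libraries gave p = 0.00455, the smallest it can give, and the adjusted p was 0.0174 over a family of 42 tests. For the RFX core the shares were 2.72%, 1.95% and 2.05% with the ASO and 0.741 to 0.994% in the others (exact p = 0.00455, adjusted p = 0.0174). TAATTA was found in 9.90%, 13.1% and 13.2% of these regions with the ASO and in 3.54 to 8.60% in the others (exact p = 0.00455, adjusted p = 0.0174). TGANTCA was found in 7.49%, 6.22% and 7.78% with the ASO and in 8.04 to 18.4% in the others, and this difference did not pass the adjustment (exact p = 0.0273, adjusted p = 0.0674).

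The same order appeared in the height of peaks that every library had. Among the 14179 regions listed in all 12 libraries with 35 to 45% GC at the summit, the 1194 with the palindrome were compared with the rest by the normal score of their fold within each library. Their mean score was higher by 0.49, 0.40 and 0.46 in ASO replicates 1, 2 and 3, and by 0.02 to 0.17 in the 9 others. The difference between the groups was 0.36 (exact permutation test, n = 3 against 9, p = 0.00455, adjusted p = 0.0174). For the 470 regions with the RFX core the values were 0.39, 0.34 and 0.34 against -0.02 to 0.09, a group difference of 0.30 (exact p = 0.00455, adjusted p = 0.0174). Among the 20 listed motifs with at least 50 such regions the RFX core had the largest group difference in size. Next came TGANTCA, where the score was -0.11, -0.16 and -0.10 with the ASO against -0.04 to 0.14, a group difference of -0.15 (exact p = 0.00455, adjusted p = 0.0174). For TAATTA the values were 0.09, 0.10 and 0.12 against -0.08 to 0.04, a group difference of 0.14 (exact p = 0.00455, adjusted p = 0.0174). Leaving out any 1 ASO library, which allows no p under 0.0182, took the adjusted p of each of these 7 passing motif differences to 0.0587 or 0.0694, with the sign kept. With the replicate number as a block, which pairs libraries that may come from 1 pregnancy, the adjusted p of each of the 7 was 0.0547 and none of them passed. Without the block, 9 height and 7 share differences of the 42 passed, 5 of each higher with the ASO, so the shift was not confined to these motifs. The others were heights of -0.10 for CAGATG, 0.09 for ACAATGG, -0.07 for TGTTTAC, -0.05 for TGACG and 0.05 for CCAATCA, and shares of -5.35 points for CAGCTG, 1.42 for CTATTTNTA, 0.799 for ATGCAAAT and -1.91 for GGAATG. Motif and GC were read around the summit from the library where a region ranked highest. Whether a shared region counted as holding a motif is therefore not independent of the heights compared. The motif list was known and the palindrome chosen after the shares of the 3011 regions had been seen, and in bulk chromatin more nuclei with an open site and a wider opening per nucleus cannot be told apart.

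Library properties moved with the same 3 libraries. The smallest peak width in a list, read as the fragment length that the peak caller used, was 55, 59 and 53 bp in ASO replicates 1, 2 and 3 and 62 to 66 bp in the 9 others (exact permutation test, p = 0.00455, adjusted p = 0.0102 over 9 library values). An estimate of relative depth, the most frequent background divided by that smallest width and scaled to a mean of 1, was 1.31, 1.05 and 1.30 with the ASO and 0.775 to 1.03 in the others (exact p = 0.00455, adjusted p = 0.0102). The median width of peaks outside the 3011 regions was 119, 125 and 114 bp against 127 to 139 bp (exact p = 0.00455, adjusted p = 0.0102). The groups did not overlap in these 3 values, but the depth estimate contains the width. The background itself did overlap, at 2.11, 1.82 and 2.03 fragments with the ASO and 1.5 to 1.9 in the others. Their 162763 to 184717 peaks and median summit pileups of 16 to 18 fragments overlapped those of the others, at 137417 to 180989 peaks and 17 to 18 fragments. Their part in the makeup of the 3011 regions was not tested. With lists cut to equal length the width difference was -2.33 bp (exact p = 0.809, adjusted p = 0.809). With those lists, the 137417 peaks with the best p-values in each library, 2191 regions met the rule, with a median GC of 41.5%.

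The lean towards AT-rich sequence was also present outside the selected regions. Regions listed in a single library had a median GC of 49.2%, 45.8% and 48.2% in the ASO libraries and of 47.7 to 52.5% in the others, where PBS replicate 1, at 47.7%, lay within the ASO range (exact permutation test, p = 0.0136, adjusted p = 0.0245). Without ASO replicate 2 the adjusted p was 0.0655. Repeat-masked bases in these regions were 12%, 13.5% and 14.1% with the ASO and 9.49 to 11.6% in the others (exact p = 0.00455, adjusted p = 0.0102). Their promoter share was 10.8%, 7.63% and 11.6% against 10.2 to 16% (exact p = 0.0273, adjusted p = 0.0351), and leaving out any of 5 libraries took that adjusted p to between 0.0545 and 0.0818. With the replicate block it was 0.0527. All peaks outside the 3011 regions had a median GC of 50.9 ± 0.357% against 51.7 ± 0.479% (SD, n = 3 and 9, exact p = 0.0273, adjusted p = 0.0351), and a promoter share of 23.1 ± 0.991% against 24.8 ± 1.33% (exact p = 0.0864, adjusted p = 0.0864). Without PBS replicate 1 the latter difference passed, at -1.87 points (exact p = 0.0303, adjusted p = 0.0303).

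In the regions listed in all 12 libraries, the 25% richest in GC (57.9% or more) stood above the 25% poorest (46.1% or less) in every library. The difference in mean normal score of fold was 0.17, 0.27 and 0.31 in ASO replicates 1, 2 and 3 and 0.24 to 0.52 in the others, with a group difference of -0.15 (exact permutation test, p = 0.0409, adjusted p = 0.0460). The groups overlapped in this value, since PBS replicate 1 stood at 0.24. Leaving out any of 8 libraries took this adjusted p to between 0.0545 and 0.205, and leaving out any of 8 took that of the GC outside the regions to between 0.0545 and 0.225.

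**Figure D4:**
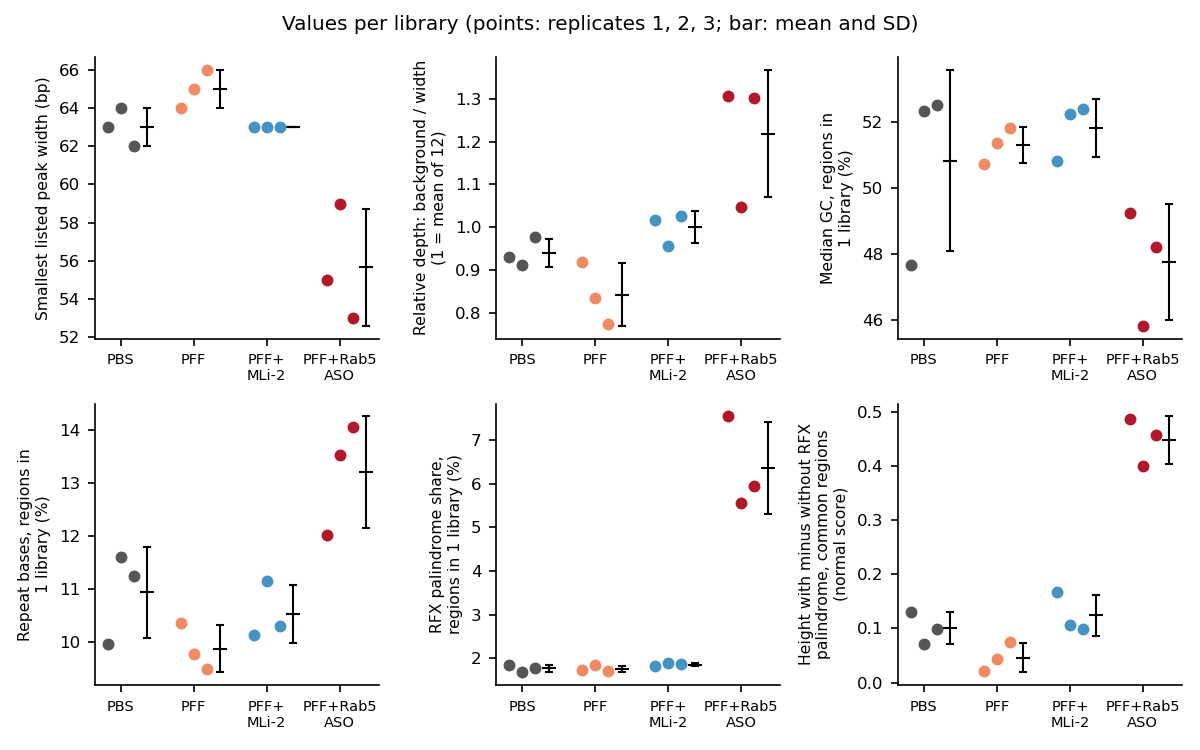
Each panel plots 1 value per library (points, replicates 1 to 3 of each group from left to right) with the group mean and SD (bar, n = 3). The 3 PFF + Rab5 ASO libraries lie apart from the other 9 in 5 panels, and in the panel of median GC of single-library regions PBS replicate 1 lies among them at 47.7%.

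The highest region of all lay on chromosome 1, 22235 bp upstream of Stat4, which encodes a transcription factor of interleukin-12 signalling. Its summit held 26, 22 and 24 fragments in ASO replicates 1, 2 and 3, its mean percentile was 84.8 ± 3.06 (SD, n = 3), and it holds both an AP-1 motif and a palindrome match at 10 of 14 positions. A region in an intron of Ptprz1, a receptor tyrosine phosphatase of neural cells (chr6:22941886-22942232, 33.4% GC), followed with 24, 22 and 24 fragments. An intronic region of P3h2, a collagen prolyl hydroxylase, held 23, 19 and 26 fragments.

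Fhit, a gene at a common fragile site, was the host of 2 of the 12 highest regions. The higher of them (chr14:10457259-10457505) held 25, 18 and 24 fragments and the other (chr14:9923441-9923667) 21, 20 and 21. A region 140671 bp upstream of Kcnh7, a voltage-gated potassium channel gene (chr2:63324785-63325132), held 22, 19 and 21 fragments. The region 3688 bp downstream of the start of Tcstv3 (chr13:120321057-120321454) was 77.1% repeat-masked and had 63.1% GC, and because this family has near-identical copies its 21, 19 and 27 fragments may come from several of them. The other 5 of the 12 lay in an intron of Ccdc60 or far from protein-coding starts, nearest to Vrk2, Fbxo33, Nox3 and D3Ertd751e, with 17 to 25 fragments in each library.

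Of the 3008 regions 91 (3.03%) lay within 1 kb of a start of a protein-coding gene, against 14.0% of all regions. Starts of any annotated transcript counted, including those inside a gene. The regions named here at Adss, Tusc3, Brwd1, Fggy, Myt1 and Cers6 lay inside the gene but upstream of the matched start. Those starts were thus internal, and not the outermost start of the gene. The highest region was at Adss, an enzyme of AMP synthesis, with 21, 16 and 20 fragments and a percentile of 74.8 ± 7.55. The next was at Tusc3, a subunit of the complex that attaches sugars to proteins in the endoplasmic reticulum, with 22, 20 and 15 fragments. Brwd1, a bromodomain protein, had 22, 14 and 14 fragments in a region with an 11-position palindrome match 4.5 bp from the summit. The regions at Myt1, a neural zinc-finger factor (20, 11 and 19 fragments), and at Ddc, the decarboxylase that makes dopamine and serotonin (19, 17 and 11 fragments), also had palindrome matches at 11 positions. Fggy, Rbm47 and Cers6 completed the 8 highest, with 14 to 19 fragments. The ASO replicates spread widely in these 8 regions compared with the 12 highest, with SDs of 5.39 to 30.4 percentile points beside 1.27 to 8.86.

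**Figure D5:**
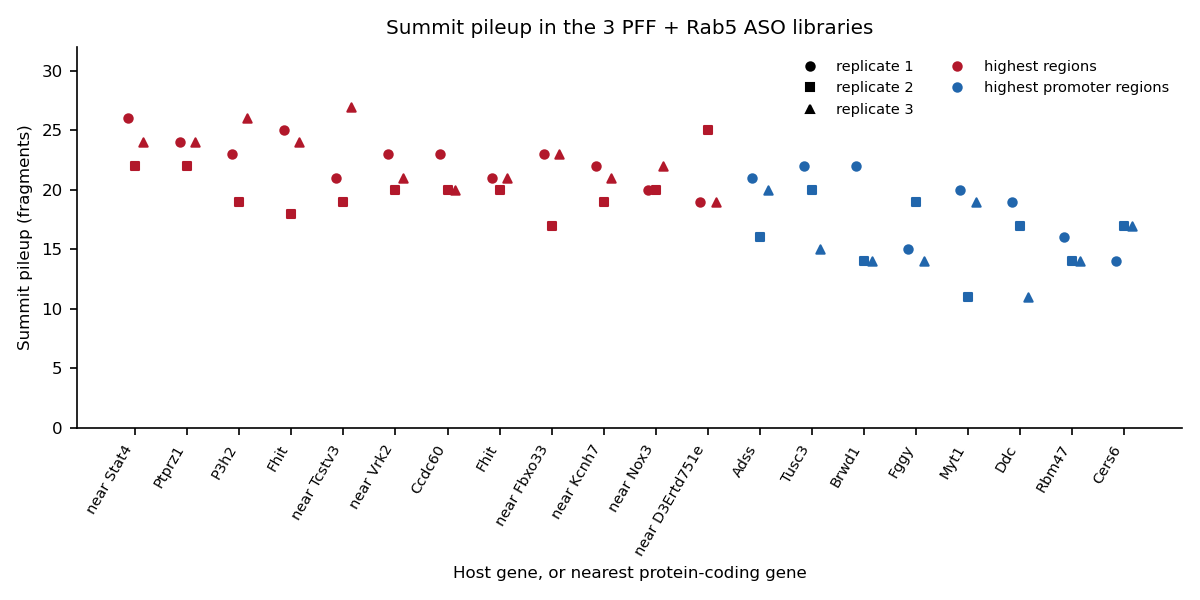
Summit pileup in fragments (y axis) is plotted with 1 symbol for each PFF + Rab5 ASO library and no averaging. The x axis gives the host gene or nearest protein-coding gene of the 12 highest regions and of the 8 highest at starts of protein-coding genes. These starts include ones inside a gene. The 12 highest regions hold 17 to 27 fragments in each library and the 8 promoter regions 11 to 22.

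Among the gene lists, regions were assigned to the protein-coding gene that holds them, or otherwise to the nearest protein-coding start. That start can be far away, so an assigned gene need not be one that the region controls. The 3008 regions were assigned to 2072 genes. Synaptic adhesion genes, which hold the membranes of a synapse together, had 96 members among 3997 regions (2.40%), and axon guidance genes, which steer growing axons, 60 among 2642 (2.27%), beside the 1.14% of all regions. Regions of these lists were AT-rich, with median GC of 44.7% and 46.8%. Under 45% GC the shares were 4.14% (85 of 2054) for synaptic adhesion and 3.92% (43 of 1098) for axon guidance, beside 2.73% of all 73768 such regions. In the synaptic adhesion list, 26 of 42 genes had a member. The highest lay in an intron of Cntn5, a contactin (24, 15 and 18 fragments). The next lay 594757 bp from the start of Adgrl2, a latrophilin and its nearest protein-coding gene (22, 15 and 19 fragments). In the axon guidance list, 26 of 37 genes had a member. The highest lay in an intron of Slit2, a repellent ligand of Robo receptors (20, 16 and 20 fragments). The next lay 356251 bp from the start of Plxna2, a semaphorin receptor and its nearest protein-coding gene (22, 17 and 16 fragments).

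Over all GC contents the other neuronal lists lay nearer to the background, but under 45% GC several had shares like that of axon guidance. There the shares were 3.90% for GABA signalling, 3.75% for presynaptic release, 3.21% for voltage-gated channels, 3.14% for interneuron factors, 2.97% for glutamate receptors, 2.64% for projection neuron factors, 2.29% for neuron markers and 0.926% (1 of 108) for immediate early and activity genes, beside 2.73%. Glutamate receptors and scaffolds had 35 members of 2493 regions (1.4%), with the highest in Grm7, a metabotropic receptor (19, 16 and 16 fragments). GABA signalling had 9 of 540 (1.67%). Presynaptic release had 15 of 919 (1.63%). The highest was nearest to Sv2b, a synaptic vesicle protein, at 232313 bp from its start (18, 17 and 16 fragments). Voltage-gated channels had 33 of 2267 (1.46%), cortical projection neuron factors 20 of 1801 (1.11%) with Cux1 and Rorb as the nearest genes of the highest, and interneuron factors 13 of 955 (1.36%) with Sp8 and Nr2f2. Immediate early and activity genes had 4 of 471 (0.849%), among them 2 on either side of Bdnf, which encodes a neurotrophin induced by activity (14, 17 and 15 fragments upstream, and 16, 12 and 14 downstream).

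Over all GC contents the endosomal and lysosomal lists were close to or under the background. Under 45% GC, lysosome and TFEB family genes had 4 members of 100 regions, autophagy genes 4 of 105 (3.81%), senescence and TGF-beta genes 10 of 214 (4.67%) and Rab5 and early endosome genes 2 of 183 (1.09%), beside 2.73% of all such regions. Rab5 and early endosome genes had 3 members of 601 regions (0.499%, 95% Wilson interval 0.17 to 1.46%), nearest to Pik3c3, the lipid kinase of early endosomes (11, 12 and 14 fragments), and to Rabep1, a Rab5 effector (16, 8 and 13 fragments). Lysosome and TFEB family genes had 6 of 423 (1.42%), the highest nearest to Mitf, a TFEB relative (16, 14 and 18 fragments), and Lamp2, a lysosomal membrane protein (16, 11 and 17 fragments). Autophagy genes had 7 of 570 (1.23%), including an intron of Atg10 and an exon of Tax1bp1. Intervals of these lists span the background. The lists of LRRK2, synuclein and parkinsonism (4 of 447, 0.895%), interferon and nucleic acid sensing (1 of 248, 0.403%), unfolded protein, integrated and heat stress (3 of 383, 0.783%) and senescence and TGF-beta (13 of 862, 1.51%) were of the same order, with the highest members at Dnajc6 and nearest to Ifnar1, Gadd45g and Igfbp7. The starts of Ifnar1, Gadd45g and Igfbp7 lay 30346, 174262 and 1775333 bp from these regions.

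LRRK2 is the kinase that MLi-2 inhibits in the parallel group. The region in its gene lies at chr15:91738969-91739081, 77 bp downstream of the start of a short non-coding Lrrk2 transcript inside the gene, and not at the start of the full-length transcript. Its summit held 13, 13 and 13 fragments in the ASO libraries, its percentile was 43.1 ± 4.63 and its GC content 44.2%.

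The Rab5 genes had no member. The regions assigned to Rab5a, Rab5b and Rab5c numbered 2, 2 and 6. The main promoter regions were listed in all 12 libraries. The Rab5a promoter had 68, 70 and 66 fragments at its summit with the ASO and 62 to 77 in the others. The Rab5b promoter had 81, 78 and 79 fragments with the ASO and 82 to 90 in the others. The Rab5c promoter, whose gene the ASO did not target, had 67, 68 and 66 against 72 to 80. The Rab5a values overlapped between the groups, and those of Rab5b and Rab5c did not. These pileups are not scaled to depth. Ranked within each list, the promoters overlapped between the groups for all 3 genes, with percentiles of 94.8 to 97.3 against 93.1 to 96.7 for Rab5b and of 96.8 to 97.7 against 97.1 to 98.7 for Rab5c. Another Rab5a promoter region of 116 bp was listed in 6 libraries, with 23, 20 and 19 fragments with the ASO. An ASO acts on messenger RNA, so these values do not check the knockdown, and RNA was not analysed here.

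The genes with the most members were long, and their shares are set beside the 1.14% of all regions. Csmd1, a membrane protein with complement-control domains, held 8 among the 225 regions in its 1643 kb body (3.56%). Macrod2, an ADP-ribosylhydrolase, held 7 of 166 (4.22%). Cdh13 (a cadherin), Magi2 (a synaptic scaffold), Ntm (an adhesion molecule), Prkg1 (the cGMP-dependent kinase) and Rbfox1 (a neuronal splicing factor) held 6 each, among 121 to 219 regions. Other long genes had lower shares: Fgfr2, annotated over 2960.9 kb, held 4 of 543 (0.737%) and Dlg2, over 1972.58 kb, 4 of 251 (1.59%). In all, 1319 members lay in the bodies of 1002 protein-coding genes, 785 of which held 1 member and 72 of which held 3 or more.

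Markers of cell types were read from promoter peaks. All 12 neuron markers, all 10 astrocyte markers and all 10 neural progenitor markers had a promoter peak in 12 of 12 libraries, as had 5 of 10 oligodendrocyte lineage and 5 of 10 vascular and meningeal markers. Of 10 microglia markers 5, among them Cx3cr1, Trem2 and Spi1, had a promoter peak in 0 libraries. Some promoters of other cell types were listed less with the ASO: that of Sox10, a factor of the oligodendrocyte lineage, in 1 of 3 ASO libraries and 9 of 9 others, of Tmem119 in 0 of 3 and 5 of 9, of Mag in 0 of 3 and 4 of 9, and of P2ry12 in 0 of 3 and 3 of 9. That of Cspg4 went the other way, in 3 of 3 and 6 of 9, and these 5 were named after their values were seen. The remaining promoters listed in some libraries only went both ways. Counted over the 3 ASO libraries and over all 12, Csf1r had 2 and 7, Col1a2 1 and 1, C1qa 1 and 6, and Cldn5 and Dcn 0 and 1. Their part in the results was not tested. An open promoter is not expression, so the astrocyte and progenitor values do not count cells. None of the 3011 regions lay at a marker promoter. Among the regions assigned to markers, members numbered 5 of 445 for neurons (1.12%), 2 of 406 for astrocytes (0.493%), 3 of 385 for progenitors (0.779%), 1 of 203 for vascular and meningeal cells (0.493%), and 0 of 167 and 0 of 92 for the oligodendrocyte lineage and microglia. The Wilson intervals of all 6 lists include the 1.14% of all regions.

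At the edges of the set, the 3 regions with the lowest percentile sat at promoters of Srcin1, Pde4a and Zfp46, with 23 to 33 fragments at the summit but percentiles of only 0.317 to 0.421. They lay 108, 7 and 19 bp, in that order, from a region outside the set, and the deposited fold, which divides by a local background, was low there. Just outside the rule, the highest region with 1 other library (chr16:98107175-98107477) had 28, 24 and 26 fragments with the ASO and 13 in PFF + MLi-2 replicate 2. The next (chr10:112863913-112864170) had 32, 22 and 29 fragments with the ASO and 11 in PBS replicate 1. The highest region in 2 of 3 ASO libraries, in an intron of Plcb1 (chr2:135165360-135165479), had 20 fragments in replicate 2 and 17 in replicate 3. These values are of the same size as those of the highest members. Without ASO replicate 2 or 3 the rule took in 5152 and 5272 regions.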

How the data were processed

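ATAC-seq was analysed in 12 libraries of cultured mouse cortical neurons, 3 for each of 4 groups taken from the labels. According to the submitters' processing notes and the methods of the study, the authors used Trim Galore 0.6.7 for trimming, Bowtie2 2.5.1 for alignment to GRCm38 and MACS2 2.2.7.1 for peaks, called in each library on its own. The calling options, duplicate removal and any shift for Tn5 are not given in the sources used here. The authors deposited 1 peak list per library, with 137417 to 184717 peaks and 1916151 in all. The deposited columns hold a score, a fold enrichment at the summit over local background (a ratio), and the −log10 p-value and −log10 q-value of the peak. Reads, read totals and peaks below the authors' threshold were not analysed here, so absence from a list is not absence of signal. The summit pileup was taken as the whole number that, with the deposited fold, gives the deposited −log10 p-value, and a match within 0.001 was found for 100% of the peaks. Relative depth was estimated as the most frequent background of a library divided by its smallest listed peak width, and it therefore depends on that width.

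Overlapping peaks (1 bp or more) of the 12 lists were joined into regions. Position classes came from GENCODE vM21, and GC, repeats (lower-case bases) and motifs from the RefSeq GRCm38.p6 sequence. Promoters were regions within 1000 bp of a transcription start of any annotated transcript. Regions were ranked by fold within each list. Library values were compared between the 3 PFF + Rab5 ASO libraries and the other 9 by two-sided exact permutation tests with Benjamini-Hochberg adjustment and a threshold of 0.05. The methods of the study count each pregnancy as 1 replicate and divide its cultures over the groups, while the labels do not tie a replicate number to a pregnancy. Deviations of same-numbered libraries correlated at 0.00519 to 0.0790 over 18 pairs, and all 12 libraries correlated best with their own number. Values with the replicate block are given where they change a call. Such a p-value is the share of choices of 3 libraries with a mean difference at least as large in size. The test treats the PBS, PFF and PFF + MLi-2 libraries as exchangeable, and without the block it ignores the replicate number. Wilson intervals cover counting error only. Python 3.11.15, numpy 2.4.6, pandas 2.3.3, scipy 1.17.1 and matplotlib 3.10.9 were used, and the steps were tested on simulated data.

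The regions and gene lists were chosen with earlier results of these data known. The named regions were the 12 highest, the 8 highest within 1000 bp of a protein-coding start, the highest 1 or 2 of each gene list, the hosts with most members (6, with ties), the 3 lowest, the regions just outside the rule and those at the Rab5 promoters. The tests of motifs across libraries and the palindrome were added after the motif shares of the selected regions had been seen. Values of some genes that this rule and the marker lists cover are not reported here. The symbols Mapk8ip4, Park2 and Mb21d1 were not matched in the annotation. Alternatives covered the merging distance, list length, peak threshold, absence rule, promoter distance, GC window, motif window, the replicate block and each library left out.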

Additional observations from a re-analysis of the deposited data

How the results depend on the processing

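The number of regions was 5240 when a peak in at most 1 of the 9 others was allowed, and 3105 to 5272 with each library left out. Their median GC was 41.1% with peaks merged within 100 bp, 42.4% with at most 1 other library, 40% in 200 bp around the summit and 41.5 to 43.1% with each library left out. The promoter share was 9.14% at 2000 bp and 5.35 to 6.74% with libraries left out, and the repeat share 12.6 to 13.6%. The CpG ratio was 0.154 with merging, 0.157 with lists of equal length, 0.154 at a −log10 q of at least 3, 0.161 with at most 1 other library and 0.152 to 0.160 with libraries left out. The share within 1000 bp of another region was 27.3% with merging, 39.1% with equal lists and 45 to 47.5% with libraries left out. With equal lists the ASO libraries differed from the others by -2.33 bp in median width (adjusted p = 0.809 by exact permutation), by -1.18 points in promoter share outside the regions (adjusted p = 0.0351) and by -0.15 in the height difference of GC-rich and GC-poor regions (adjusted p = 0.0563). With each library left out, the differences ran from -0.860 to -0.504 points for GC outside the regions, from -2.03 to -1.17 for promoter share outside them, from -4.84 to -3.35 for GC and from -4.77 to -3.16 for promoter share of single-library regions, and from -0.17 to -0.10 for the height difference. For motifs they ran from 1.32 to 1.76 points (RFX core share), 0.29 to 0.32 (its height), -0.17 to -0.14 (AP-1 height), 6.52 to 7.95 points and 0.13 to 0.15 (homeobox), and 4.41 to 5.62 points and 0.34 to 0.38 (palindrome). The cause of these shifts was not tested. With the replicate block the differences were the same, and the adjusted p rose to 0.0527 for the promoter share of single-library regions (-3.50 points) and to 0.0547 for the RFX core (1.36 points and 0.30), AP-1 height (-0.15), homeobox (6.74 points and 0.14) and palindrome (4.57 points and 0.36). It changed no other call among the 9 library values, and for motifs it is given for the RFX core, palindrome, AP-1 and homeobox searches. The smallest p that the block allows is 0.0156. No direction was reversed under any of these alternatives. Depth in reads is unknown, which limits what can be said of low peaks.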
